A study of Mus musculus with 6 samples.

Results

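The Toll-like receptors and CD180 were followed in oral tumours of mice, in rows of a targeted expression table chosen by symbol: Tlr1, Tlr2, Tlr3, Tlr4, Tlr5, Tlr6, Tlr7, Tlr8, Tlr9 and Cd180. All 10 genes stood in the table, among 770 genes in all. The tumours were oral squamous cell carcinomas that the carcinogen 4NQO had induced, and RNA came from formalin-fixed, paraffin-embedded primary tumours. One group of 3 samples had received an agonistic antibody to CD40, and the other group of 3 had received vehicle. Both groups thus carried tumours of the same chemical origin. Mouse age and sex, the antibody's clone and dose, the sampling time and whether each sample was a separate animal were not given in the sources used here. For that reason the p-values cover only how much these samples vary, part of which may be technical.

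Toll-like receptors are membrane proteins of innate immunity. Their outer, leucine-rich part binds conserved microbial molecules or nucleic acids, and their inner TIR domain recruits the adaptors MyD88 or TRIF, which lead to NF-κB and interferon regulatory factors. TLR1, TLR2, TLR4, TLR5 and TLR6 work mainly at the cell surface, whereas TLR3, TLR7, TLR8 and TLR9 survey nucleic acids in endosomes. CD180, also called RP105, resembles TLR4 outside the cell and pairs with the MD-1 protein, but it lacks the TIR domain. It is known from B cells, macrophages and dendritic cells, the same kinds of cells that carry CD40.

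Windows around the start sites of Tlr8, Tlr9 and Cd180 are shown because a pattern described further on sets Tlr8 and its neighbour Tlr7 against Tlr9 and Cd180. The pattern is not particular to these genes. Tlr1, Tlr2, Tlr3 and Tlr6 also separated from Tlr8 there, and Tlr3, Tlr5 and Tlr6 from Cd180. The sequences come from RefSeq (build GRCm38.p6) and run 5′ to 3′ on the gene's strand, from 250 bases before the start to 50 bases after it. Symbols matched windows for 8 of the 10 genes, all but Tlr4 and Tlr7. Capitals mark GAGGAA, the core of sites for the myeloid and B cell factor PU.1, and TGANTCA, the core of AP-1 sites, each searched on both strands. No match of one overlapped a match of the other. Among 32851 such windows in the RefSeq table, 28.3% hold the first motif and 7.81% the second. The Tlr8 window spans chrX:167264280-167264579 on the minus strand, the Tlr9 window chr9:106222348-106222647 on the plus strand and the Cd180 window chr13:102693297-102693596 on the plus strand.
Tlr8: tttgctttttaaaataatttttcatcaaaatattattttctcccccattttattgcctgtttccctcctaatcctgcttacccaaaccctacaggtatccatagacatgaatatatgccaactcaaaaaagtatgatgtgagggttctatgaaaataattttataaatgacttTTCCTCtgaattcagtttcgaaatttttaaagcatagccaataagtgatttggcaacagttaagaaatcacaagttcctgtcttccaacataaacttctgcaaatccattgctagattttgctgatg
Tlr9: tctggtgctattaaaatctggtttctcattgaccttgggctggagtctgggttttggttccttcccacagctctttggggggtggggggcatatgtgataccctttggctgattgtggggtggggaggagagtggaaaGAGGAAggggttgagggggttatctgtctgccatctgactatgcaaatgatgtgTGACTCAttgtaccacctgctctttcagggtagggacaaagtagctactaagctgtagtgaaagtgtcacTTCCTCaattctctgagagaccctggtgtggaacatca
Cd180: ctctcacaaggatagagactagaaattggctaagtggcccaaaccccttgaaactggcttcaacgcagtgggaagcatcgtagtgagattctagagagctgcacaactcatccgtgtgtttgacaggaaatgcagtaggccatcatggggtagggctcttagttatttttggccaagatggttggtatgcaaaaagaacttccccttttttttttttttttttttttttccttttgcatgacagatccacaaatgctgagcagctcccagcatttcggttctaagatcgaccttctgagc
The Tlr8 window held 1 match to the PU.1 core, the Tlr9 window 2 to that core and 1 to the AP-1 core, and the printed Cd180 window none of either. Cd180 has a second window in the table that starts 11 bases further on. Tlr1 and Tlr6 are next to each other among the protein-coding genes of the RefSeq table, on chromosome 5, and so are Tlr7 and Tlr8, on the X chromosome. Nothing in the expression table measures these sequences, so a match is a description of the letters only.

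Values below are log2 normalized counts, as the authors deposited them. Differences are anti-CD40 minus vehicle on that scale. Whole counts recovered from the values summed to 333400 to 497475 per anti-CD40 library and to 357258 to 578598 per vehicle library. A gene was taken as above background where its count exceeded the mean of the library's 8 negative controls plus 2 SD, a limit of 24.7 to 26.6 counts. The measured genes of epithelium and carcinoma, Epcam, Cdh1, Egfr and Itga6, were above background in every library, and Krt5, Krt14, Trp63 and Cdkn2a were not among the measured genes. The lowest median over all genes was 7.68 in vehicle 3, against 7.90 to 8.19 in the other libraries. Of the 10 genes followed here, 5 had their lowest value in vehicle 3 and 4 their highest in vehicle 2.

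In the group comparison, Tlr7, Tlr8 and Tlr4 lay higher in all 3 anti-CD40 tumours than in any vehicle tumour, and Cd180 had the lowest mean difference of the family. No member passed the threshold. Limma with Benjamini-Hochberg adjustment over the table called 0 of the 10 genes and 0 of all 770 (0%), and the adjusted p of the 10 genes was 0.974 to 0.988. At an unadjusted p under 0.05, limma placed 0 of the 10 genes and 25 of 770 (3.25%), 17 of them higher (2.21%) and 8 lower (1.04%). In the mean, 4 of the 10 were higher and 6 lower, beside 54.5% higher and 45.5% lower over all genes. Their median difference was −0.12, beside 0.038 for all genes, and it ranged from −0.39 without vehicle 3 to 0.091 without vehicle 2. Groups did not overlap for 3 of the 10, all higher in anti-CD40 tumours, whereas 10.3% of all genes had such groups, 6.75% higher and 3.51% lower. With 10 genes, 3 is a small count to set against that share. Without vehicle 3 the count was 7, 3 higher and 4 lower, beside 21.0% of all genes, and without anti-CD40 2 it was 6, beside 24.8%. In tumour RNA, a change in the number of cells of a type and a change in RNA per cell cannot be told apart.

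**Figure D1:**
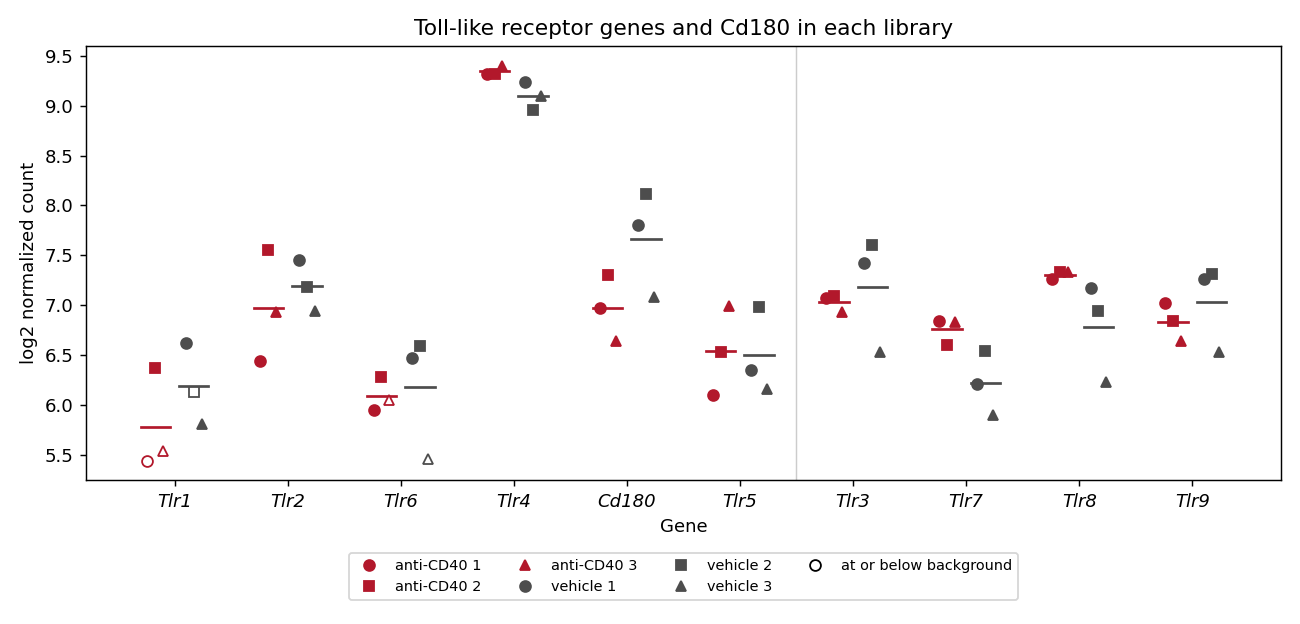
Log2 normalized counts (vertical axis) of each gene (horizontal axis) in the 3 anti-CD40 libraries (red) and the 3 vehicle libraries (grey); symbols give the library, horizontal bars the group means, open symbols values at or below background, and the vertical line parts surface receptors from endosomal ones. Red points lie above all grey points for Tlr4, Tlr7 and Tlr8, where the lowest anti-CD40 values are 9.31, 6.60 and 7.26 and the highest vehicle values 9.24, 6.54 and 7.17.

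Among the endosomal receptors, Tlr7 and Tlr8 differed most. Tlr7, a sensor of single-stranded RNA, was 6.84, 6.60 and 6.83 in anti-CD40 libraries 1, 2 and 3, against 6.21, 6.54 and 5.90 in vehicle libraries 1, 2 and 3. The groups came closest at anti-CD40 2 and vehicle 2, which were 0.062 apart. The means were 6.76 ± 0.13 and 6.22 ± 0.32 in anti-CD40 and vehicle tumours (SD, n = 3 each), a difference of 0.54 (SE 0.25, 95% confidence interval −0.036 to 1.12), or 1.45-fold. Limma gave Tlr7 an unadjusted p of 0.0625 (adjusted p = 0.974), which ranked 37 among the 770 genes. Its counts were only 27 to 48 per library, and counting error alone would give an SD of 0.23, nearly all of the 0.25 seen within groups. In vehicle 2, the library closest to the anti-CD40 group, the count of 27 lay just over the background limit of 26.6.

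Tlr8, whose human counterpart senses single-stranded RNA fragments, was 7.26, 7.33 and 7.33 in the anti-CD40 libraries, against 7.17, 6.94 and 6.23 in the vehicle libraries. The anti-CD40 samples were nearly alike, and the vehicle samples spread over almost 1 log2 unit with vehicle 3 far below the others. Its means were 7.31 ± 0.041 in anti-CD40 and 6.78 ± 0.49 in vehicle tumours, a difference of 0.53 (SE 0.29, 95% confidence interval −0.14 to 1.20). Without vehicle 3 the difference was 0.25. Limma ranked Tlr8 69 of 770 by p (unadjusted p = 0.106, adjusted p = 0.974).

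Tlr9, the receptor for unmethylated CpG DNA, did not share this order. It was 7.03, 6.84 and 6.64 in the anti-CD40 libraries, against 7.26, 7.31 and 6.53 in the vehicle libraries. Vehicle 1 and 2 were above every anti-CD40 library and vehicle 3 below them, so the groups overlapped. The difference was −0.20 (SE 0.28), and it was −0.45 without vehicle 3, −0.10 without anti-CD40 3, −0.084 without vehicle 1 and −0.058 without vehicle 2.

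Tlr3, which binds double-stranded RNA and signals through TRIF alone, followed almost the same profile as Tlr9. Its values were 7.08, 7.09 and 6.93 in the anti-CD40 libraries, against 7.42, 7.61 and 6.53 in the vehicle libraries. Again the anti-CD40 samples lay within the span of the vehicle samples, which was 1.08 wide. The difference was −0.15 (SE 0.32), −0.48 without vehicle 3, −0.033 without vehicle 1 and 0.059 without vehicle 2.

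At the cell surface, Cd180 had the largest difference of the 10 genes. It was 6.98, 7.31 and 6.64 in the anti-CD40 libraries, against 7.80, 8.11 and 7.08 in the vehicle libraries. Only vehicle 3 reached into the anti-CD40 range, below anti-CD40 2, so the groups overlapped by that pair. The means were 6.97 ± 0.33 in anti-CD40 and 7.66 ± 0.53 in vehicle tumours, a difference of −0.69 (SE 0.33, 95% confidence interval −1.47 to 0.085). That is 0.62-fold, and 7.14% of all genes had a larger difference in either direction. Limma gave an unadjusted p of 0.0736 and an adjusted p of 0.974. After each library was centred on its median, or after quantile normalization, the groups of Cd180 no longer overlapped and those of Tlr4 did. The spread within groups was 2.49 times what counting error gives.

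Tlr4, the receptor for bacterial lipopolysaccharide, was the most tightly measured of the family. It was 9.31, 9.32 and 9.40 in the anti-CD40 libraries, against 9.24, 8.96 and 9.10 in the vehicle libraries, with 150 to 326 counts. The highest vehicle sample lay just below the lowest anti-CD40 sample. Means were 9.34 ± 0.049 and 9.10 ± 0.14 in anti-CD40 and vehicle tumours, a difference of 0.25 (SE 0.21, 95% confidence interval −0.23 to 0.73; limma adjusted p = 0.974). With 1 library left out the difference stayed between 0.18 and 0.32. Yet 44.4% of all genes had a larger difference than Tlr4.

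Tlr2 and its partner Tlr1 had similar profiles over the libraries, and the groups of each overlapped. Tlr2, which recognises bacterial lipopeptides mainly as a pair with TLR1 or TLR6, was 6.44, 7.55 and 6.93 in the anti-CD40 libraries, against 7.45, 7.19 and 6.94 in the vehicle libraries. Tlr1, the partner for triacylated lipopeptides, was 5.44, 6.37 and 5.54 in the anti-CD40 libraries, against 6.62, 6.13 and 5.81 in the vehicle libraries. In both genes anti-CD40 2 was the only anti-CD40 library within the vehicle range or above it, and anti-CD40 1 was the lowest of all 6. The differences were −0.22 (SE 0.33) for Tlr2 and −0.40 (SE 0.34) for Tlr1. Without anti-CD40 1 that of Tlr2 was 0.047 and that of Tlr1 −0.23. Without anti-CD40 2 they were −0.51 and −0.70, without vehicle 1 they were −0.090 and −0.19, and without vehicle 3 that of Tlr2 was −0.34. Tlr1 was above background in 3 of 6 libraries, with 15 to 51 counts, and the exact Poisson 95% interval of the lowest count ran from 8.40 to 24.7. With values under background raised to the limit, its difference was −0.13.

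Tlr6, the partner of TLR2 for diacylated lipopeptides, was 5.95, 6.28 and 6.05 in the anti-CD40 libraries, against 6.48, 6.59 and 5.46 in the vehicle libraries. It was above background in 4 of 6 libraries, all but anti-CD40 3 and vehicle 3. The difference of −0.084 (SE 0.34) was −0.44 without vehicle 3, 0.066 without vehicle 1 and 0.12 without vehicle 2. Tlr5, the flagellin receptor, was 6.10, 6.53 and 7.00 in anti-CD40 libraries, against 6.35, 6.98 and 6.16 in vehicle libraries. Anti-CD40 3 and vehicle 2 were the highest in their groups and nearly equal, and the difference of 0.046 (SE 0.33) turned negative when anti-CD40 3 (−0.18), vehicle 3 (−0.12) or vehicle 1 (−0.027) was left out. Leaving out anti-CD40 1 or vehicle 2 instead gave 0.27 or 0.29. For these genes the libraries available do not settle a direction.

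**Figure D2:**
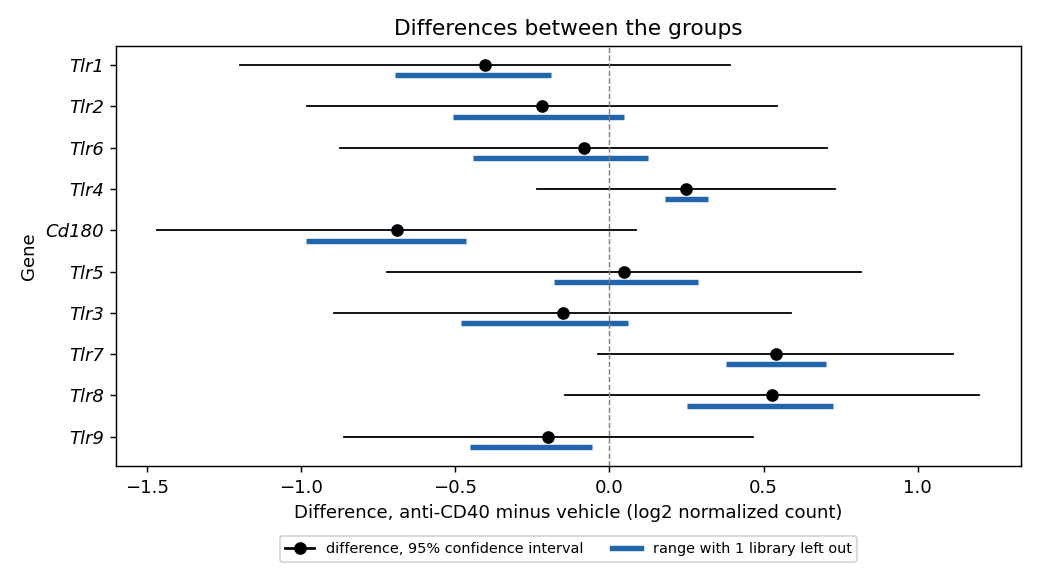
Difference between the groups, anti-CD40 minus vehicle, in log2 normalized counts (horizontal axis) for each gene (vertical axis); points and black lines give the limma estimate with its 95% confidence interval, and blue bars the range of the estimate with 1 library left out. All 10 intervals include 0, and the blue bars of Tlr2, Tlr6, Tlr5 and Tlr3 cross it.

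Profiles over the 6 libraries, each centred on its own mean, were compared by their root mean square difference in log2. The closest pairs within the family were Tlr3 with Tlr6 (0.11), Tlr3 with Tlr9 (0.12), Tlr1 with Tlr2 (0.17), Tlr6 with Tlr9 (0.21) and Tlr7 with Tlr8 (0.22). Tlr7 and Cd180 were the farthest apart (0.68). The neighbouring genes Tlr1 and Tlr6 lay at 0.35. All these values share the same libraries and scaling factors, so they describe how the profiles look and carry no test. The lowest of the 6 values in Tlr3, Tlr6, Tlr7, Tlr8 and Tlr9 alike was that of vehicle 3.

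**Figure D3:**
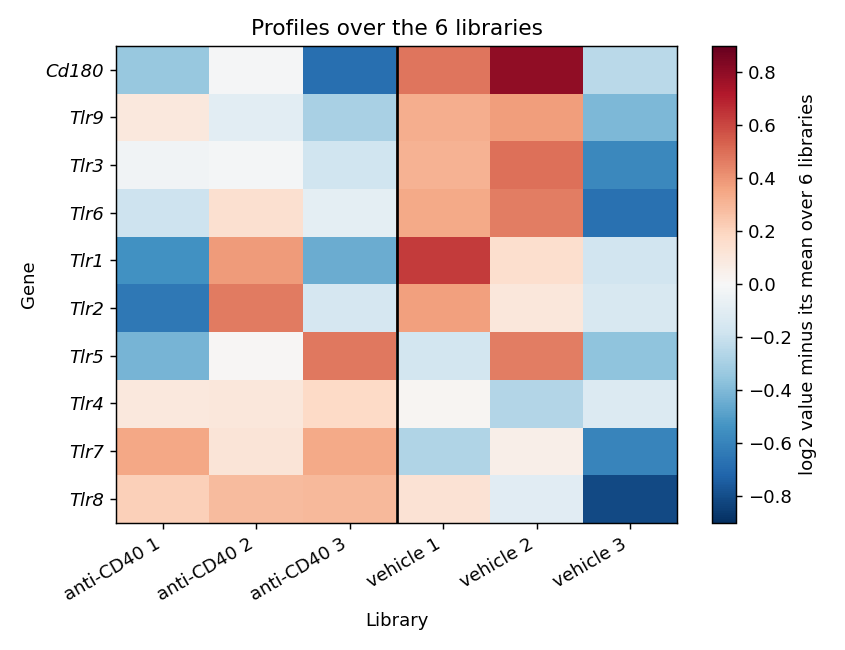
Log2 normalized count of each gene (rows) in each library (columns) minus the gene's mean over the 6 libraries, red above and blue below that mean; the black line parts anti-CD40 from vehicle libraries. Cd180 is red in vehicle 1 and 2 and blue in vehicle 3, Tlr7 and Tlr8 are red in all anti-CD40 libraries, and vehicle 3 is blue in every row.

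Outside the family, the 515 other genes above background in all libraries were ranked by the same distance. For Tlr7 the closest were the integrin gene Itga5 (0.088) and Ticam1 (0.12), which encodes TRIF. For Tlr8 they were the properdin gene Cfp (0.12) and again Itga5 (0.15). Cd180 was closest to the transcription factor gene Pou2f2 (0.15) and to Spn (0.19), which encodes the leukocyte sialoprotein CD43. Tlr2 lay close to Cxcl16 (0.12), Tlr3 to Clec4a2 (0.097) and the complement gene C1qa (0.12), and Tlr9 to Cd207 (0.11), the Langerhans cell lectin langerin, and Clec4a2 (0.12). Tlr4 ran closest to the housekeeping gene Polr1b (0.049). Tlr5 had no close match, with C6 at 0.20 and Tnfrsf1b at 0.21. The median distance of these 515 genes was 0.40 for Tlr7, 0.54 for Cd180 and 0.32 for Tlr4.

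The difference between 2 genes of the same library cancels any common shift of that library's log2 values, and this view was added after the values had been seen. Each value holds a constant of 4.55 added to the scaled count, so the library's scaling factor does not cancel fully at low counts. Tlr8 minus Cd180 was 0.28, 0.022 and 0.69 in anti-CD40 libraries 1, 2 and 3, against −0.63, −1.17 and −0.85 in vehicle libraries 1, 2 and 3. Every anti-CD40 tumour lay above every vehicle tumour. Tlr7 minus Cd180 was −0.14, −0.70 and 0.19 in anti-CD40 libraries, against −1.59, −1.57 and −1.18 in vehicle libraries, again without overlap. The shift between the groups was 1.22 for the first pair and 1.23 for the second, and it stayed between 1.04 and 1.37 and between 1.03 and 1.47 with 1 library left out. With 3 libraries a group, the smallest p of an exact two-sided permutation test is 0.1, so a single pair cannot pass a threshold of 0.05.

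Groups also did not overlap where Tlr7 or Tlr8 was set against Tlr9 or Tlr3, the other endosomal receptors. Tlr8 minus Tlr9 was 0.23, 0.49 and 0.69 in the anti-CD40 libraries, against −0.09, −0.37 and −0.30 in the vehicle libraries, a shift of 0.73. Tlr7 minus Tlr9 was −0.19, −0.23 and 0.19 in anti-CD40 libraries, against −1.04, −0.77 and −0.63 in vehicle libraries, a shift of 0.74. Neither pair overlapped between the groups with all 6 libraries, and leaving out a library cannot add an overlap. Tlr3 separated from both genes as Tlr9 did. Tlr3 minus Tlr8 was −0.18, −0.24 and −0.40 in anti-CD40 libraries, against 0.25, 0.67 and 0.30 in vehicle libraries, a shift of −0.68. Tlr3 minus Tlr7 was 0.24, 0.49 and 0.10 in anti-CD40 libraries, against 1.21, 1.06 and 0.63 in vehicle libraries, a shift of −0.69. Tlr7 minus Tlr8, in contrast, had means of −0.55 ± 0.16 in anti-CD40 and −0.56 ± 0.34 in vehicle tumours. Tlr3 minus Tlr9 overlapped as well, with means of 0.20 ± 0.13 in anti-CD40 and 0.15 ± 0.15 in vehicle tumours. The values of a pair depend on how well each of the 2 genes is captured as well as on the transcripts, so the shift between groups can be read and the level cannot.

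Of the 45 pairs within the family, 13 had groups that did not overlap, beside 10.2% of all 296065 pairs of genes in the table. The 13 are not independent of each other: 6 involved Tlr8, 6 involved Cd180 and 3 involved Tlr7. Tlr1 minus Tlr8, Tlr2 minus Tlr8 and Tlr6 minus Tlr8 were among them, with shifts of −0.93, −0.75 and −0.61. So were Tlr3, Tlr5 and Tlr6 minus Cd180, with shifts of 0.54, 0.74 and 0.61. Tlr9 minus Cd180 was another, with a shift of 0.49, so these 2 genes also separated from each other. Without anti-CD40 2 the count was 20 of the 45, beside 28% of all pairs at that setting. Among TLR2 and its partners, Tlr1 minus Tlr2 (−1.19 ± 0.20 in anti-CD40 and −1.01 ± 0.15 in vehicle tumours), Tlr2 minus Tlr6 (0.88 ± 0.39 and 1.02 ± 0.44) and Tlr1 minus Tlr6 (−0.31 ± 0.34 and 0.010 ± 0.42) all overlapped. No pair with Tlr4 was free of overlap.

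**Figure D4:**
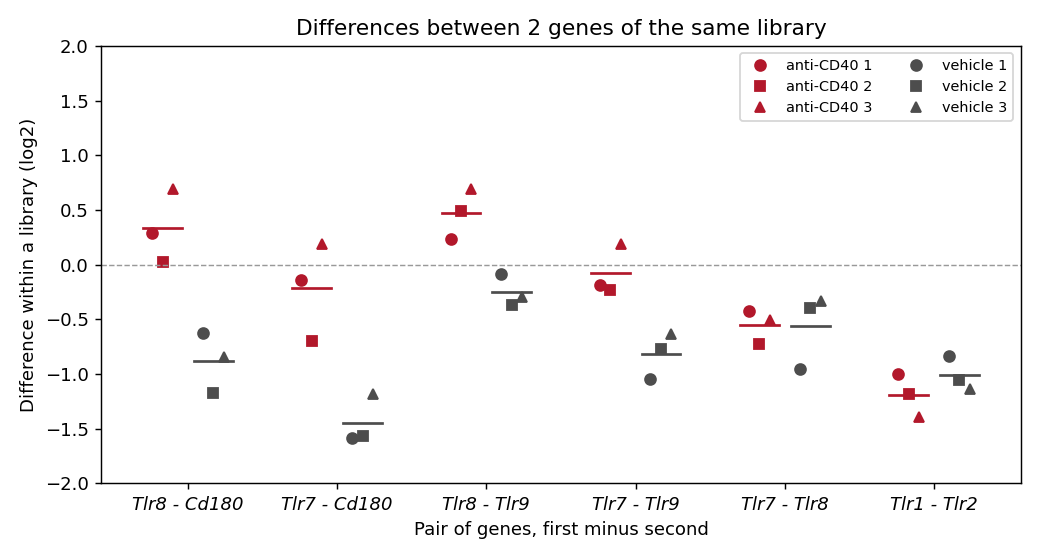
Difference in log2 normalized count between 2 genes of the same library (vertical axis) for 6 pairs (horizontal axis), in anti-CD40 (red) and vehicle (grey) libraries; bars are group means. The 4 pairs that set Tlr7 or Tlr8 against Cd180 or Tlr9 separate the groups, with means of 0.33 and −0.88 for Tlr8 minus Cd180, while Tlr7 minus Tlr8 and Tlr1 minus Tlr2 overlap.

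Markers of the cells that carry these receptors were read beside them. All 10 macrophage and monocyte genes were measured, 8 of them above background in all libraries and none at 0 counts throughout. Their list mean was 8.43, 8.74 and 8.46 in the anti-CD40 libraries, against 8.60, 8.59 and 7.90 in the vehicle libraries. Their summed linear values ran from 4682 to 5743 in anti-CD40 and from 3498 to 5641 in vehicle tumours, so vehicle 3 was low here as it was for Tlr7 and Tlr8. Of the 10 markers, 7 were higher and 3 lower in the mean of anti-CD40 tumours, with a median difference of 0.32. Groups did not overlap for 2 of the 10, both higher, beside 6.75% of all genes. Set against this list mean, Tlr8 lay higher in every anti-CD40 library than in any vehicle library, with a shift of 0.35, though anti-CD40 2 and vehicle 1 came close at −1.41 and −1.43. By the same measure Cd180 lay lower without overlap, with a shift of −0.87. Tlr9 also lay lower without overlap, with a shift of −0.38, though anti-CD40 1 and vehicle 3 came close at −1.40 and −1.37. Tlr7 (0.36) and Tlr4 (0.071) overlapped once set against the list. The share of all genes that separate when set against a marker list was not computed, so these separations have no such share beside them.

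B cell markers did not follow the order of Cd180 over the libraries. All 10 were measured, but Blnk alone was above background in every library, and Cd79a, Cr2, Cd22 and Fcer2a were above it in none, though none had 0 counts throughout. The list mean was 6.40, 6.45 and 5.63 in the anti-CD40 libraries, against 5.67, 7.08 and 5.48 in the vehicle libraries. It lay below the background limit in anti-CD40 3 (limit 6.24) and vehicle 3 (limit 5.57), and at the limit of 5.66 in vehicle 1. For that reason it cannot tell whether Cd180 followed B cells in those libraries. Summed values were 1187 to 1412 in anti-CD40 and 985.1 to 2248 in vehicle tumours. Vehicle 2 held the highest B cell mean and the highest Cd180, yet vehicle 1, with the next highest Cd180, had a low B cell mean. Relative to the list mean Cd180 was 0.58, 0.86 and 1.01 in anti-CD40 libraries, against 2.13, 1.04 and 1.60 in vehicle libraries, a shift of −0.77 without overlap. Neutrophil markers, 7 of 9 measured and 2 of these above background in every library, had list means of 9.64, 9.19 and 7.06 in anti-CD40 libraries, against 7.26, 9.71 and 6.79 in vehicle libraries.

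Dendritic cell and T cell markers were lower in the mean of the anti-CD40 tumours, and no gene of either list passed the test. Of 8 dendritic cell markers 4 were measured, none of these was above background in all libraries, and Xcr1 was above it in none. All 4 had a negative difference, with a median of −0.26. The list mean was 5.69, 6.48 and 5.96 in the anti-CD40 libraries, against 6.66, 6.55 and 5.998 in the vehicle libraries, and summed values were 217.3 to 372.2 in anti-CD40 and 275.9 to 440.3 in vehicle tumours. Flt3, the receptor for a growth factor of dendritic cells, was named after its values were seen and had a difference of −0.75 (SE 0.29), beside −0.69 for Cd180. It was 5.52, 6.19 and 5.85 in the anti-CD40 libraries, against 6.91, 6.73 and 6.16 in the vehicle libraries, so the groups just overlapped (limma, unadjusted p 0.0367, adjusted p 0.974). In anti-CD40 1 and 3, Flt3 lay below the background limits of 5.94 and 6.24. All 6 T cell markers were measured, 4 of them above background in all libraries and Cd2 in none, and all 6 had a negative difference, with a median of −0.25. Their list mean was 6.08, 6.98 and 6.55 in the anti-CD40 libraries, against 6.97, 6.96 and 6.56 in the vehicle libraries, and summed values were 482.7 to 886.5 in anti-CD40 and 784.8 to 1027 in vehicle tumours. Cd5, a surface receptor of T cells and of some B cells, was likewise named after its values were seen. It lay lower without overlap, at 7.55, 7.94 and 7.85 in the anti-CD40 libraries, against 8.80, 8.41 and 8.63 in the vehicle libraries, a difference of −0.83 (SE 0.23; limma, unadjusted p 0.0080, adjusted p 0.974). Of 6 markers of plasmacytoid dendritic cells 2 were measured, both above background in all libraries, 1 higher and 1 lower in the mean. Their list mean was 8.65, 8.60 and 8.97 in the anti-CD40 libraries, against 9.09, 8.95 and 8.38 in the vehicle libraries. The part of cell composition in the differences was not tested beyond the values of these marker lists.

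The other genes of the pathway were taken from lists of co-receptors, adaptors and kinases, negative regulators, transcription factors and induced cytokines. Of 65 listed genes 60 were measured, and limma called 0 of them after adjustment, with 31 higher and 29 lower in the mean. Groups did not overlap for 7 of the 60, 5 higher and 2 lower, beside 10.3% over all genes. The median difference was 0.017.

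Among co-receptors, 5 of 6 measured genes were higher in the mean, with a median of 0.26, and all groups overlapped. Lbp, the carrier that hands lipopolysaccharide to CD14, was 8.73, 8.46 and 8.48 in anti-CD40 libraries, against 8.83, 7.53 and 7.68 in vehicle libraries, which is 0.54 apart (SE 0.37). Without vehicle 2 this was 0.30 and without vehicle 1 it was 0.95. Cd14 itself differed by 0.39 (SE 0.32), by 0.11 without anti-CD40 2, 0.22 without vehicle 3 and 0.62 without anti-CD40 1. The scavenger receptor gene Cd36 differed by 0.48 (SE 0.40), by 0.13 without anti-CD40 1, 0.27 without vehicle 3 and 0.84 without anti-CD40 2. The partner of Cd180, Ly86, which encodes MD-1 and was picked here for that role, was 8.30, 9.02 and 8.85 in anti-CD40 libraries, against 9.28, 8.96 and 8.67 in vehicle libraries. The partner of Tlr4, Ly96, which encodes MD-2, was 8.72, 8.62 and 8.46 in anti-CD40 libraries, against 8.68, 8.08 and 8.64 in vehicle libraries. Neither partner separated the groups.

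Of 19 adaptor and kinase genes, 14 were higher and 5 lower, with a median of 0.098. Groups did not overlap for 2 higher genes and 1 lower gene, beside 6.75% and 3.51% of all genes. These were Ticam2 and Irak1 (0.23, SE 0.21) on the higher side and Tab1 (−0.29, SE 0.21) on the lower. Irak1 and Tab1 were above background in all 6 libraries. Ticam2, which encodes the TRIF-bridging adaptor TRAM of TLR4, was 6.69, 6.49 and 6.47 in anti-CD40 libraries, against 6.32, 6.26 and 5.94 in vehicle libraries. Its difference was 0.38 (SE 0.22) without overlap, and it was above background in 5 of 6 libraries. Ticam1, the adaptor gene of TLR3, differed by 0.39 (SE 0.27; 0.24 without vehicle 3 and 0.60 without vehicle 2), and Ikbke, which encodes a kinase upstream of interferon regulatory factors, by −0.52 (SE 0.26), both with overlap. Their limma adjusted p was 0.974.

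Among 7 measured negative regulators, 3 were higher and 4 lower. The 3 higher ones, Irak3, Sigirr and Cyld, each had groups that did not overlap, beside 6.75% of all genes that were higher without overlap. With 7 genes, 3 is a small count to set against that share. Irak3, which encodes the inactive kinase IRAK-M that holds back MyD88 signalling, was 8.33, 8.55 and 8.58 in anti-CD40 libraries, against 7.95, 7.93 and 7.72 in vehicle libraries. It was the only pathway gene with an unadjusted p under 0.05 (limma, 0.0203; adjusted p = 0.974), at a difference of 0.62 (SE 0.21). Sigirr, an inhibitory receptor of the same superfamily, was 8.15, 7.74 and 7.67 in anti-CD40 libraries, against 7.39, 7.53 and 7.27 in vehicle libraries, a difference of 0.46 (SE 0.23). Tnfaip3, the NF-κB inhibitor A20, lay the other way by −0.63 (SE 0.32), with overlap, and by −0.37 without anti-CD40 3.

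Downstream, of 17 cytokine and chemokine genes that these receptors can induce, 13 were lower and 4 higher, with a median of −0.31, but only 5 were above background in all libraries and Il23a, Ifnb1 and Ccl3 were in none. Cxcl1, a neutrophil attractant, was 6.48, 8.61 and 6.72 in anti-CD40 libraries, against 8.16, 8.36 and 8.67 in vehicle libraries. Anti-CD40 2 stood within the vehicle range and the other anti-CD40 libraries far below it. The difference of −1.13 (SE 0.54) became −1.80 without anti-CD40 2 and −0.73 without anti-CD40 1. Ccl4 did not overlap (−0.47, SE 0.24; −0.31 without vehicle 2) but was above background in only 2 libraries. Ccl5 differed by −0.77 (SE 0.41), −0.39 without anti-CD40 1 and −0.48 without vehicle 1. Among 11 transcription factor genes, 5 were higher and 6 lower. Fos, a subunit of AP-1, was 10.19, 10.98 and 11.00 in anti-CD40 libraries, against 13.05, 11.91 and 10.62 in vehicle libraries, or −1.14 (SE 0.59) between the means. Without vehicle 1 this was −0.54 and without vehicle 3 it was −1.76. Rel differed by −0.55 (SE 0.28) and Jun by −0.34 (SE 0.26), which was −0.13 without vehicle 1 and −0.52 without vehicle 3. Each of these genes had a limma adjusted p of 0.974.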

How the data were processed

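Expression was measured in 3 anti-CD40 and 3 vehicle samples of tumour RNA, grouped by their titles. The authors' deposited table holds log2 normalized counts, per its name, for 770 genes, 6 positive and 8 negative controls. Platform, normalization and genome build were not given in the sources used here. Every value equalled the log2 of the sum of 4.55 and a whole count scaled by 1 factor per library (4704 of 4704 values, within 0.05 of a count), so differences of low genes are understated. The groups were compared with limma 3.58.1 in R 4.3.3 (lmFit, eBayes, 4 residual and 3.37 prior degrees of freedom) over the whole table, two-sided, and p-values were adjusted by Benjamini-Hochberg at 0.05. The procedure was run on simulated data with changes larger than any difference of the 10 genes. That run does not show how well it recovers differences of their size. Python 3.11.15, pandas 2.3.3 and matplotlib 3.10.9 served for tables and plots. Intervals on counts cover counting error only. Alternatives were other scalings, background limits, variance models, recovered counts, an added constant of 1, a replicate block and leaving out each library. Beside the 10 genes, the text names the 3 genes of lowest p in each pathway list, the 2 genes of closest profile (for Tlr2 and Tlr4, 1 of these is not reported here), and others where it says so or where they make up a small count. The genes, lists and comparisons were chosen with earlier results of these data known.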

Additional observations from a re-analysis of the deposited data

How the results depend on the processing

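Limma called 0 genes of the whole table, 0 of the 10 receptor genes and 0 pathway genes under each of the 16 alternatives, with 13 to 52 genes at an unadjusted p under 0.05 and a lowest adjusted p of 0.208 over all genes. Tlr1, Tlr4, Tlr7, Tlr8, Tlr9 and Cd180 kept their direction in all 16. With 1 library left out, differences ranged from −0.51 to 0.047 for Tlr2 (positive without anti-CD40 1), from −0.48 to 0.059 for Tlr3 (positive without vehicle 2), from −0.18 to 0.29 for Tlr5 (negative without anti-CD40 3, vehicle 1 or vehicle 3) and from −0.44 to 0.12 for Tlr6 (positive without vehicle 1 or vehicle 2); the cause was not tested. The median of the 10 genes ranged from −0.39 to 0.091. The 3 genes without overlap were Tlr4, Tlr7 and Tlr8 on the deposited values and after housekeeping centring, and Tlr7, Tlr8 and Cd180 after median centring or quantile normalization. With 1 library left out, 3 to 7 of the 10 genes and 14 to 20 of the 45 pairs had groups that did not overlap, beside 14.4% to 24.8% of all genes and 15.4% to 28% of all pairs. The filter on genes above background in at least 3 libraries kept all 10. With the replicate number as a block, 0 genes were called and the lowest adjusted p was 0.964. Deviations of same-numbered samples correlated across genes at −0.43, 0.069 and 0.28, so the numbers were not taken as pairs, and not every sample correlated best with its own number. Tlr1, Tlr6 and Tlr7, with lowest counts of 15, 22 and 27, are the genes in which depth limits the comparison most.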
